A study of Mus musculus with 42 samples.

Results

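Olfr1324, Olfr1354 and the unnamed gene ENSMUSG00000061305 are 3 of the 44674 genes measured in the mouse main olfactory epithelium after exposure to food odours. They were picked from the measurements themselves, as genes whose share in the captured ribosomes was higher after the odours of normal chow (NCD) and of a bacon-flavoured diet (Bacon) than without odour, and was not higher after the odour of a lard-based high-fat diet (HFD). The levels and changes of the 3 genes under these odours are therefore given as a description, without a test. The gene annotation used here, GENCODE M21 on the GRCm38 build, names 1170 olfactory receptors of the table. It holds the first 2 genes but neither a name nor a position for ENSMUSG00000061305, so that gene appears by its identifier.

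The animals were male C57BL/6NCrl mice of 8 to 12 weeks, and all groups shared this strain, sex and age range. Each sample was a pool of 4 epithelia. After 1 h of exposure there were 5 pools without odour, 6 with NCD odour, 5 with Bacon odour and 5 with HFD odour, so 21 pools in all. Each pool gave 2 RNA-seq libraries, a pulldown (Ribo) library made with an antibody against phosphorylated ribosomal protein S6 and an input library of the whole tissue.

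An olfactory sensory neuron as a rule uses a single olfactory receptor gene out of the large family. Odour binding to the receptor acts through the G protein subunit Gnal and the cyclase Adcy3 to open the channel Cnga2, and the activity of the neuron raises the phosphorylation of S6. The messenger RNA of a receptor is thus enriched in the pulldown when the neurons that carry it are active. In bulk tissue, fewer cells of a type and less RNA per cell cannot be told apart.

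Olfr1324 (ENSMUSG00000048173) lies on the minus strand at chrX:50420998-50428498, and Olfr1354 (ENSMUSG00000094673) on the plus strand at chr10:78913171-78920399. Their coding sequences of 996 and 930 bases were identical at 63.5% of the aligned bases, with no identical run above 20 bases. Olfr1354 has near-identical neighbours in Olfr8 and Olfr1355, identical to it at 98.2% and 97.7% of the coding bases, with identical runs of up to 170 and 164 bases. The closest coding sequence found for Olfr1324 was that of Olfr161, identical at 67.1%. The same 90-base coding stretch is shown for the 4 receptors, 5′ to 3′ on the coding strand, because it shows how far reads from one can be told from another. Capitals mark the bases that differ from Olfr1354, which are 20 in Olfr1324 and 2 each in Olfr1355 and Olfr8.
Olfr1324: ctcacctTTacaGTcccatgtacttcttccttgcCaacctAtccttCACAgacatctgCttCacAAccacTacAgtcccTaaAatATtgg
Olfr1354: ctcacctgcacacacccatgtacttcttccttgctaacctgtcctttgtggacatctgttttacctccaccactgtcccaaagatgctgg
Olfr1355: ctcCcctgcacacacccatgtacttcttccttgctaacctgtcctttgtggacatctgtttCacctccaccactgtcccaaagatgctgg
Olfr8: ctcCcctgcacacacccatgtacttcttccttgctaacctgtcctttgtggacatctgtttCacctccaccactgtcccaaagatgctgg
The stretches lie on GRCm38 at chrX:50426194-50426283 on the minus strand, chr10:78917002-78917091, chr10:78879334-78879423 and chr10:78955367-78955456 on the plus strand, in the coding sequence of each gene.

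This likeness shows in the counts. Of the 3912 words of 31 bases in the Olfr1354 transcripts, 1564 (39.98%) occurred in another gene, 1129 of them in Olfr1355 and 1023 in Olfr8. Of the 5774 words of Olfr1324, only 44 (0.762%) did. The deposited counts of Olfr1324 were whole numbers in 42 of the 42 libraries, those of Olfr1354 in 0 and those of ENSMUSG00000061305 in 17, so reads of the last 2 genes were partly divided by estimation between genes. Part of the Olfr1354 level may thus belong to its neighbours, whose own levels were low. Their mean pulldown levels were 0.68 CPM (counts relative to the normalised library size) for Olfr1355 and 0.637 CPM for Olfr8. Expected counts ran from 59 to 340 for Olfr1324, from 64.0 to 300.5 for Olfr1354 and from 66 to 355 for ENSMUSG00000061305 over all libraries.

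Library totals were 25392812 to 36738330 counts in the pulldown and 24839555 to 36781553 in the input. Ribosomal and ribosomal-like RNA took a median of 26.8% of the counts in the pulldown without odour and 11.96 to 14.96% in the 3 odour groups. The 7 markers of mature sensory neurons were all detected in every group, with a summed level of 14943 to 19057 CPM in the input libraries and 16201 to 24791 CPM in the pulldown libraries. In the pulldown their median was 16772 CPM without odour and 22750, 24209 and 21522 CPM after NCD, Bacon and HFD. The 3 markers of Bowman gland had a median of 1208 CPM in the pulldown without odour, against 713, 718 and 671 CPM after the same odours. These levels differed between no odour and each odour group, whichever way the genes below changed. Their part in each change over no odour was not tested. The Bacon pool numbered 1 stood apart, with 4557 CPM of 5 supporting cell markers in its pulldown against 1704 to 3242 CPM in the other pulldowns. The Bacon changes of the 3 genes are therefore also given without this pool.

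In the pulldown, Olfr1324 was high after NCD and Bacon and low in the other groups. Without odour its level in the 5 pools was 4.38, 2.61, 3.58, 4.05 and 5.52 CPM. After HFD odour it was 3.45, 3.81, 3.44, 3.35 and 3.02 CPM, within the range seen without odour. After NCD odour it ran from 9.09 to 11.6 CPM with a median of 10.04 over 6 pools. The 5 Bacon pools had 6.54, 8.35, 9.44, 7.51 and 10.2 CPM, the first of these being the pool that stood apart. Every NCD and Bacon pool was thus above every pool of the other 2 groups, an order of the pulldown level seen in 0.085% of all genes tested.

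The input moved little beside this. Without odour the input level of Olfr1324 was 2.66, 3.11, 3.70, 3.54 and 4.41 CPM, and after NCD it was 3.47 to 5.62 CPM with a median of 4.13. It was 3.21, 3.22, 3.96, 3.26 and 3.26 CPM after Bacon and 3.56, 4.95, 4.65, 4.66 and 4.97 CPM after HFD. The NCD inputs overlapped those of every other group, while 4 of the 5 HFD inputs were above all 5 inputs without odour and all 5 Bacon inputs.

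The log2 ratio of pulldown to input within each pool, for which 2 counts were added on average to each library, combined both. For Olfr1324 it was 0.71, -0.25, -0.04, 0.19 and 0.32 without odour and -0.04, -0.37, -0.43, -0.47 and -0.71 after HFD. It was 0.98 to 1.54 with a median of 1.21 after NCD, and 1.01, 1.36, 1.24, 1.19 and 1.62 after Bacon. All 11 NCD and Bacon pools lay above all 10 of the others, and 4 of the 5 HFD pools lay below the lowest pool without odour.

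Olfr1354 showed the same order at a lower ratio. Its pulldown level was 3.27, 3.41, 3.11, 3.34 and 5.08 CPM without odour and 3.35, 3.05, 3.04, 2.41 and 2.61 CPM after HFD. It was 6.30 to 9.02 CPM after NCD with a median of 7.93, and 5.96, 8.85, 8.47, 7.08 and 7.19 CPM after Bacon. Again no NCD or Bacon pool fell to the level of any pool of the other groups.

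The input of Olfr1354 was 4.90, 4.31, 5.24, 8.53 and 6.28 CPM without odour, and 5.02 to 5.93 CPM after NCD with a median of 5.44. It was 4.38, 5.90, 5.49, 6.25 and 3.94 CPM after Bacon and 5.21, 5.66, 5.38, 6.94 and 4.60 CPM after HFD. The 4 groups overlapped and the spread was widest without odour.

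The log2 ratio of Olfr1354 was -0.57, -0.33, -0.74, -1.34 and -0.30 without odour and -0.63, -0.88, -0.81, -1.50 and -0.80 after HFD. After NCD it was 0.32 to 0.71 with a median of 0.54, and after Bacon 0.44, 0.58, 0.62, 0.18 and 0.86. The ratio was therefore below 0 in each pool without odour or with HFD and above 0 in each pool with NCD or Bacon. HFD and no odour overlapped, with 1 HFD pool below the lowest pool without odour.

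The pulldown level of ENSMUSG00000061305 was 3.52, 3.54, 3.07, 4.57 and 3.80 CPM without odour and 3.58, 3.76, 4.40, 3.12 and 4.06 CPM after HFD. It was 8.08 to 10.6 CPM after NCD with a median of 10.36, and 6.34, 10.2, 11.1, 8.39 and 9.98 CPM after Bacon. The groups with and without a high level did not overlap, and the Bacon pool that stood apart was again the lowest of its group.

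Its input was 3.05, 2.48, 3.22, 3.32 and 3.99 CPM without odour and 3.36 to 4.63 CPM after NCD with a median of 3.75. It was 3.82, 3.16, 4.17, 3.98 and 2.91 CPM after Bacon and 3.85, 4.68, 4.48, 4.84 and 4.54 CPM after HFD, where 4 of the 5 pools were above every pool without odour and every Bacon pool. The log2 ratio was 0.21, 0.51, -0.06, 0.46 and -0.07 without odour, -0.10, -0.31, -0.02, -0.62 and -0.16 after HFD, 0.90 to 1.63 with a median of 1.35 after NCD, and 0.72, 1.67, 1.40, 1.06 and 1.76 after Bacon. As for the receptors, the ratios of all NCD and Bacon pools were above those of all pools without odour or with HFD.

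**Figure D1:**
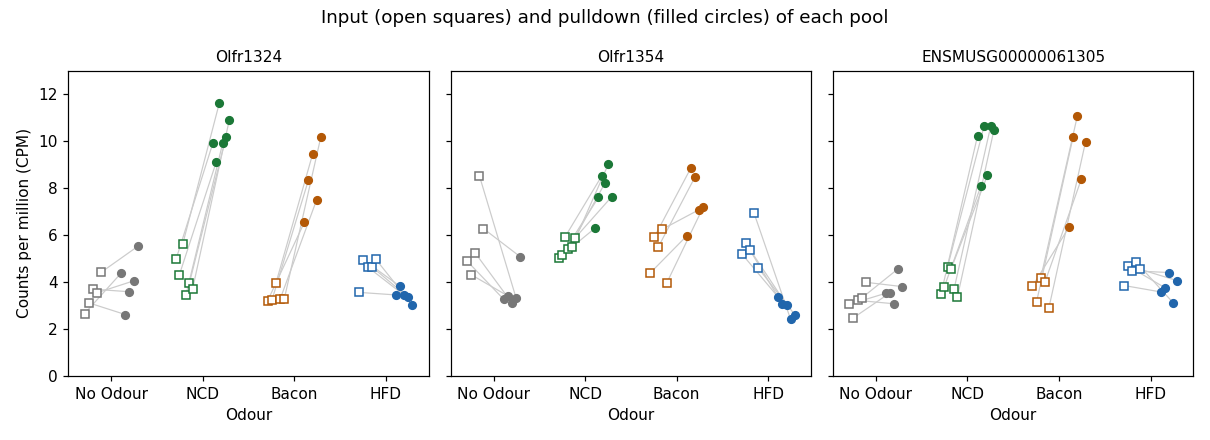
Levels of the 3 genes in each pool, in CPM on a linear axis, with input (open squares) joined to the pulldown of the same pool (filled circles) for no odour, NCD, Bacon and HFD. The lines rise in all NCD and Bacon pools for each gene, to pulldown levels of at least 5.96 CPM, while no pulldown without odour or with HFD exceeded 5.52 CPM.

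**Figure D2:**
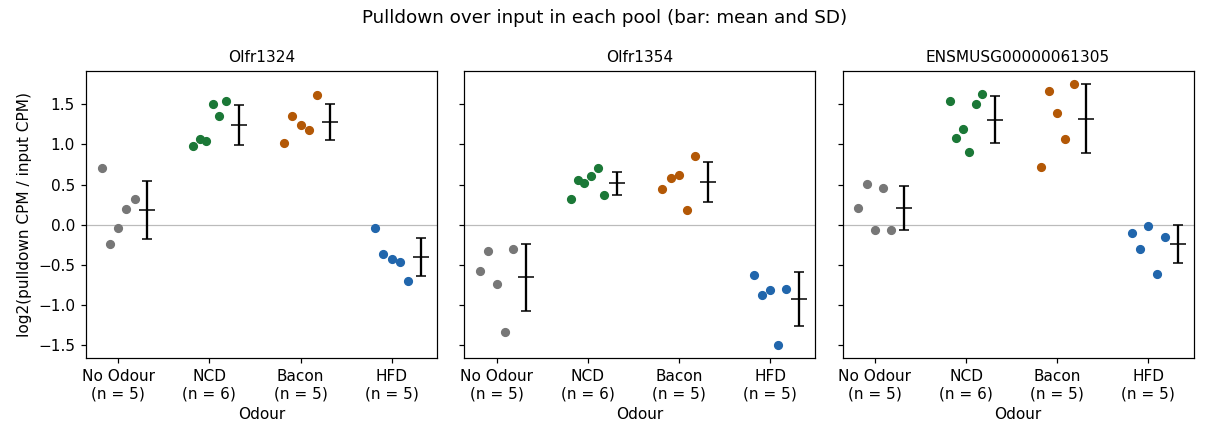
Log2 ratio of pulldown to input CPM in each pool, with 1 point per pool and the mean and SD of each group beside it (5 pools, or 6 for NCD). The mean of Olfr1354 lies below that of the other genes in every group, and the NCD and Bacon points of each gene lie above all its other points.

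This complete separation of the 11 NCD and Bacon pools from the other 10 in the log2 ratio was seen for 3 of the 3 genes and for 10 of the 21168 genes tested (0.0472%). Since the pattern was the reason for choosing the genes, nothing is read from that count. It held for 7 of the 908 named receptors tested (0.771%), Olfr1324 and Olfr1354 included.

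In a fit of all libraries with a term for each pool, the ratio of pulldown to input of Olfr1324 was higher by 1.05 ± 0.17 on the log2 scale (SE) after NCD than without odour, a 2.08-fold change. For Olfr1354 this change was 1.19 ± 0.18 (2.28-fold) and for ENSMUSG00000061305 1.11 ± 0.19 (2.17-fold). The median of the named receptors was itself 0.23 higher after NCD. Of these receptors, 79 had a larger change than Olfr1324 and 55 a larger one than Olfr1354, so the size of the NCD response did not set them apart.

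Bacon gave nearly the same values. The log2 change over no odour was 1.10 ± 0.18 for Olfr1324, 1.20 ± 0.19 for Olfr1354 and 1.13 ± 0.20 for ENSMUSG00000061305, against a receptor median of 0.29. Without the Bacon pool that stood apart the changes were 1.16, 1.23 and 1.28. With the ribosomal RNA share, which was highest without odour, as a covariate they were 1.17 ± 0.24, 1.30 ± 0.25 and 1.30 ± 0.26. The log2 difference between Bacon and NCD was 0.04 for Olfr1324 with a 95% interval of -0.29 to 0.38, 0.01 for Olfr1354 with an interval of -0.34 to 0.37, and 0.01 for ENSMUSG00000061305 with an interval of -0.36 to 0.39. Without the Bacon pool that stood apart these differences were 0.11 ± 0.17, 0.04 ± 0.18 and 0.16 ± 0.18. The intervals leave room for a modest difference in either direction.

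After HFD odour the mean ratios were below those without odour. The log2 change over no odour was -0.61 ± 0.18 for Olfr1324, -0.27 ± 0.19 for Olfr1354 and -0.45 ± 0.20 for ENSMUSG00000061305. Over the same comparison the median of the named receptors was 0.27 higher, and only 45 of them had a lower value than Olfr1324 and 136 a lower one than Olfr1354.

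The 2 kinds of library contributed unequally to these values. In the pulldown libraries alone, the log2 change of HFD over no odour was -0.24 ± 0.15 for Olfr1324, -0.33 ± 0.14 for Olfr1354 and 0.04 ± 0.14 for ENSMUSG00000061305. In the input libraries alone it was 0.39 ± 0.14, -0.07 ± 0.15 and 0.48 ± 0.13, against a receptor median of 0.06. For ENSMUSG00000061305 the lower ratio thus went with a higher input level and not with a lower pulldown, for Olfr1354 with a lower pulldown, and for Olfr1324 with both. In contrast, the NCD and Bacon changes were in the pulldown, at 1.33 and 1.06 for Olfr1324, 1.10 and 1.04 for Olfr1354 and 1.39 and 1.31 for ENSMUSG00000061305, with input changes between -0.17 and 0.31.

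In the direct comparisons of HFD with NCD and with Bacon the 3 genes lay nearer to the edge of the receptors than in the other comparisons. Their choice, as higher after NCD and Bacon and not after HFD, favours such a place, so nothing is read from it. The ratio after HFD was lower than after NCD by a log2 change of -1.67 ± 0.17 for Olfr1324, -1.45 ± 0.18 for Olfr1354 and -1.56 ± 0.19 for ENSMUSG00000061305, which is 0.315, 0.365 and 0.339 of the NCD ratio. Against Bacon the changes were -1.71 ± 0.18, -1.47 ± 0.18 and -1.58 ± 0.19, and without the Bacon pool that stood apart -1.78, -1.49 and -1.72. The HFD libraries are shared by both comparisons. Only 2 named receptors had a lower value than Olfr1324 against NCD and 3 against Bacon, and for Olfr1354 these numbers were 5 and 9. The receptor medians were 0.04 and 0.01.

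**Figure D3:**
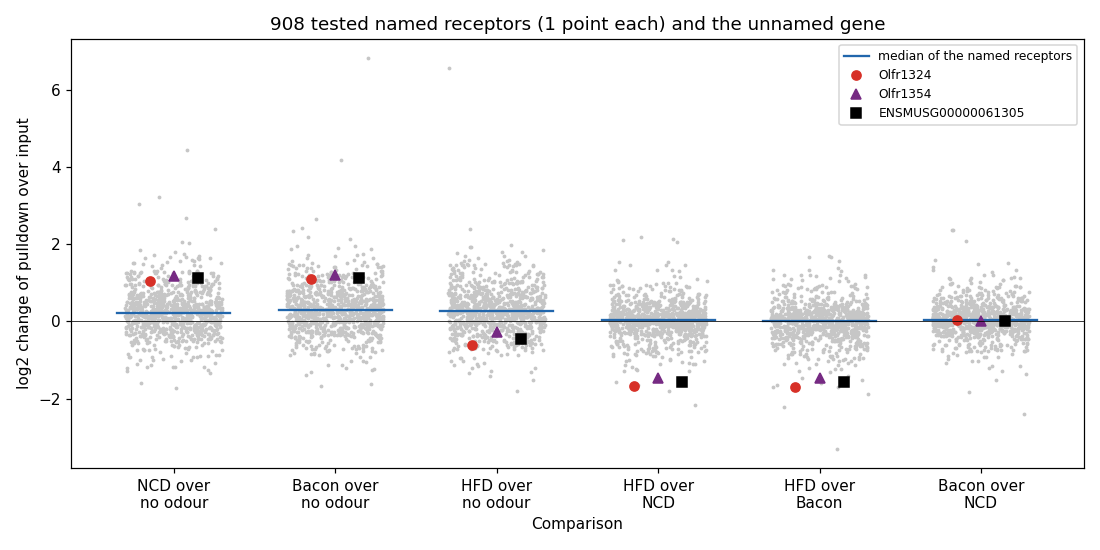
Log2 change of the pulldown-to-input ratio in the 6 comparisons, with 1 grey point for each other named receptor (908 tested with the 2 named genes of interest), a blue line at their median and the 3 genes as coloured symbols. The symbols lie within the upper part of the cloud for NCD and Bacon over no odour, near 0 for Bacon over NCD, and at the lower edge for HFD over NCD and over Bacon.

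Calls were made at an adjusted p-value under 0.001 over all 21168 genes tested, with edgeR's quasi-likelihood test and Benjamini-Hochberg adjustment. The 3 genes were among the 4 genes below it with a lower ratio after HFD than after NCD (0.0189% of those tested) and among the 8 with a lower ratio after HFD than after Bacon (0.0378%). They were likewise among the 76 genes with a higher ratio after NCD than without odour (0.359%) and the 522 after Bacon (2.47%). Of the 3 genes, the number that passed after NCD became 1 without the no-odour pool 2 or 3 or NCD pool 5 or 6, and 2 without the no-odour pool 1 or 6, NCD pool 1, 2, 3 or 4, Bacon pool 3 or 4, or HFD pool 1 or 3. After Bacon it became 2 without the no-odour pool 6 or Bacon pool 2, 3 or 5. These contrasts chose the genes, and the counts only place them. 1 other gene passed in both comparisons with HFD, namely Lcn4, a secreted lipocalin. Its log2 changes over no odour were 2.11 ± 0.17 after NCD, 1.94 ± 0.17 after Bacon and 0.81 ± 0.18 after HFD. The HFD value was thus above 0 where those of the 3 genes were below 0. For HFD over no odour neither Lcn4 nor any of the 3 genes passed the threshold. Lcn4 missed the threshold in at least 1 of the comparisons with HFD without the no-odour pool 1 or 4, NCD pool 6, Bacon pool 2, 3, 4 or 5, or HFD pool 1, 3, 5 or 6. Without Bacon pool 1 there were 8 genes that passed in both.

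Of the 908 named receptors 1.87% were higher after NCD, 3.74% after Bacon and 1.32% after HFD than without odour at this threshold. Among them 13 passed the threshold after NCD and after Bacon but not after HFD, and Olfr1324 and Olfr1354 were 2 of them. The other 11 had HFD changes over no odour of 0.18 to 0.88 with a median of 0.48, and 0 of the 11 were below 0. Olfr1324 and Olfr1354, at -0.61 ± 0.18 and -0.27 ± 0.19 (SE), were therefore the only receptors of these 13 with a negative value. Both were picked as not higher after HFD, which favours a low value here, so nothing is read from the sign. For Olfr1354 the sign was also not settled. Its interval of -0.66 to 0.13 included 0, and without HFD pool 5 its change was -0.13. A receptor that misses the threshold after HFD is not thereby shown to differ from NCD or Bacon. At the same threshold 2 of the 908 named receptors (0.22%) were lower after HFD than after NCD, and these were Olfr1324 and Olfr1354. Against Bacon 5 (0.551%) were lower. The choice of the genes favours this, so nothing is read from it. At an adjusted p under 0.05, 5 (0.551%) were lower against NCD. Olfr1275 and Olfr1384 missed 0.001, at -1.79 ± 0.27 and -1.01 ± 0.15 against NCD (edgeR adjusted p = 0.0013 and 0.0016). Against Bacon they were at -1.69 ± 0.27 and -1.02 ± 0.16 (edgeR adjusted p = 0.0029 and 0.0023).

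The log2 ratios of the 3 genes moved together over the 21 pools, with a Pearson correlation of 0.89 for Olfr1324 and Olfr1354, 0.90 for Olfr1324 and ENSMUSG00000061305 and 0.88 for Olfr1354 and ENSMUSG00000061305. These pools share the odour groups by which the genes were chosen. Once the mean of each odour group was taken off, the correlations were 0.21, 0.21 and 0.22, so most of the common movement was between the odours and not between pools of 1 odour.

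By the same measure the most similar other genes were receptors in 2 of 3 cases. For ENSMUSG00000061305 the most similar gene of all was Olfr1384, at 0.92. For Olfr1354 the closest gene outside the 3 was Olfr1275, at 0.84. For Olfr1324 it was Nupl1, a nucleoporin, at 0.86, whose changes were far smaller at 0.11, 0.22 and -0.17 after NCD, Bacon and HFD. The log2 changes of Olfr1384 were 1.19 ± 0.16, 1.20 ± 0.17 and 0.18 ± 0.17 after the same odours, and those of Olfr1275 were 2.06 ± 0.28, 1.96 ± 0.29 and 0.27 ± 0.30. The NCD and Bacon changes of Olfr1384 were thus close to those of ENSMUSG00000061305, and its HFD change was above 0.

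**Figure D4:**
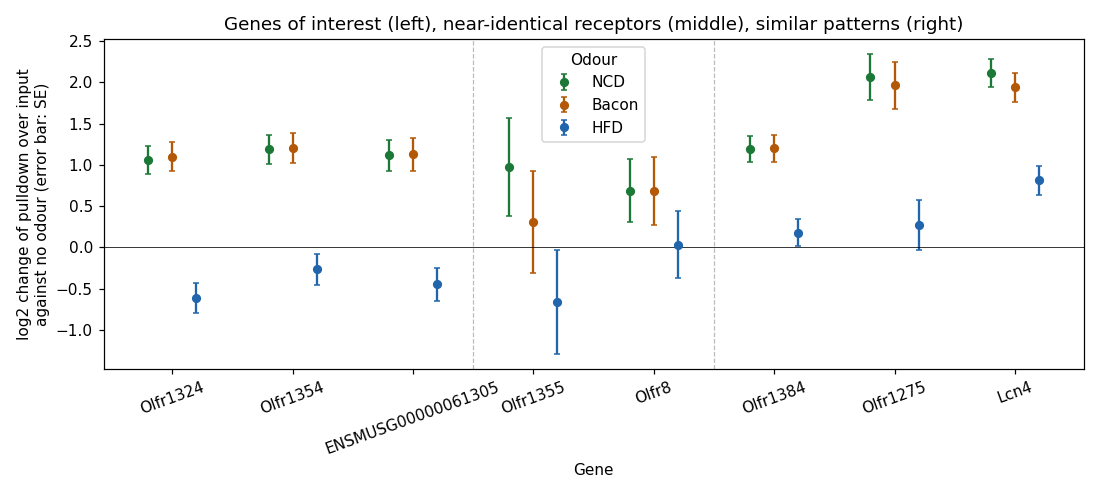
Log2 change of the pulldown-to-input ratio over no odour after NCD, Bacon and HFD, with SE bars, for the 3 genes, the near-identical receptors Olfr1355 and Olfr8, and the similar genes Olfr1384, Olfr1275 and Lcn4. The HFD values of the 3 genes lie between -0.61 and -0.27, and those of the 3 genes on the right between 0.18 and 0.81.

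Olfactory receptor genes lie in clusters, and the neighbours of the 2 placed genes were compared with them. Olfr1324 had no other receptor within 300 kb. The nearest tested, Olfr1323, lies 401.6 kb away and had log2 changes of 0.19 ± 0.34, -0.41 ± 0.35 and -0.07 ± 0.36 after NCD, Bacon and HFD. Olfr1354 had 8 receptors within 300 kb, of which 7 had enough counts for the test. By edgeR's quasi-likelihood test 0 of the 7 passed an adjusted p-value of 0.001 in any of the 6 comparisons, and DESeq2 gave the same count of 0. Of all genes 0.524%, 3.78% and 1.22% passed after NCD, Bacon and HFD over no odour, 0.0236% for HFD over NCD, 0.0378% for HFD over Bacon and 0.00945% for Bacon over NCD. At an unadjusted p under 0.05 the count was 1 after NCD, 3 after Bacon and 2 after HFD over no odour, 2 for HFD over NCD, 0 for HFD over Bacon and 1 for Bacon over NCD. Of all genes 27.9%, 33.6%, 29.6%, 4.62%, 8% and 7.24% were under it in these 6 comparisons, in the same order. The median log2 change of the 7 was 0.41 after NCD, 0.68 after Bacon and 0.03 after HFD, against 0.00, 0.00 and -0.01 over all genes tested. The medians of the named receptors were 0.23, 0.29 and 0.27. The 7 include Olfr1355 and Olfr8, whose reads may be partly divided with those of Olfr1354.

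The nearest receptors on either side of Olfr1354 were also its near-copies. Olfr1355, 30.9 kb away, had log2 changes of 0.98 ± 0.59, 0.31 ± 0.62 and -0.67 ± 0.63, and Olfr8, 30.2 kb away on the other side, had 0.69 ± 0.38, 0.68 ± 0.41 and 0.03 ± 0.41. Their standard errors were larger than that of Olfr1354, and their counts ran only from 4.44 to 46.1 and from 7.41 to 35.0. With its counts summed with those of both, Olfr1354 had HFD changes of -1.35 ± 0.16 against NCD and -1.33 ± 0.17 against Bacon, so the difference was nearly as large on the sum of the 3 copies. Farther off, Olfr1357 at 295.1 kb had log2 changes of 0.69 ± 0.25, 0.73 ± 0.26 and 0.26 ± 0.26, and Olfr1352 at 60.7 kb had -0.11 ± 0.18, -0.10 ± 0.18 and -0.08 ± 0.18.

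Per base of annotated exon, Olfr1354 was the more abundant of the 2 named receptors in the input of every group. Its input level was 1.50 ± 0.42 CPM per kb (SD) without odour and 1.40 ± 0.09 after NCD, 1.33 ± 0.25 after Bacon and 1.42 ± 0.22 after HFD. For Olfr1324 these levels were 0.600 ± 0.113, 0.748 ± 0.141, 0.582 ± 0.056 and 0.784 ± 0.100 CPM per kb. In the pulldown the 2 receptors were nearer to each other, at 2.01 ± 0.24 for Olfr1354 and 1.77 ± 0.15 for Olfr1324 after NCD.

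The list of odour transduction genes also held receptor trafficking genes and some markers and regulators of sensory neurons. Its genes did not follow the pattern of the 3 genes at the threshold used. They are shared by neurons of many receptors, so a change limited to neurons of 1 receptor need not show in them. Nothing about the 3 genes is read from this list. Of 21 tested, 0 passed in the comparisons between food odours, and 0 passed after NCD or HFD over no odour. DESeq2 also gave 0 between food odours, and 1 each after NCD and HFD. At an unadjusted p under 0.05, edgeR gave 0 for HFD over NCD, 4 for HFD over Bacon, 3 for Bacon over NCD, 7 after NCD, 10 after Bacon and 8 after HFD. The shares of all genes were 4.62%, 8%, 7.24%, 27.9%, 33.6% and 29.6%. After Bacon 2 rose, namely Omp, the marker of mature sensory neurons, by 0.64 (adjusted p = 0.0002), and Gng13, a G protein gamma subunit, by 1.33 (adjusted p = 0.0006). Of all genes 3.78% passed the same threshold after Bacon, 0.524% after NCD and 1.22% after HFD. Omp had changes of 0.42 after NCD and 0.42 after HFD, and Gng13 of 0.94 and 0.80, which did not pass. This count of 2 became 4 without the Bacon pool that stood apart, 0 without Bacon pool 2 or 3, and 1 without Bacon pool 4 or 5 or without the pool without odour numbered 2, 4 or 6. Gnal had log2 changes of -0.16, -0.14 and -0.32 after NCD, Bacon and HFD. The median over the 21 genes was 0.03, 0.02 and 0.01.

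Of 16 genes that neurons switch on when active, 0 passed in the comparisons between food odours and 0 after NCD, by edgeR and by DESeq2. These genes are not limited to neurons of 1 receptor either, so nothing about the 3 genes described is read from them. At an unadjusted p under 0.05 edgeR gave 0 for HFD over NCD, 1 for HFD over Bacon, 2 for Bacon over NCD, 6 after NCD, 6 after Bacon and 4 after HFD, against the same shares of all genes as for the transduction genes. The immediate early gene Arc fell after Bacon by 0.97 and after HFD by 1.12 on the log2 scale, and Btg2, a growth-arrest gene, rose by 0.63 after Bacon. Of all genes 3.78% passed after Bacon and 1.22% after HFD. After NCD the log2 changes were -0.79 for Arc and 0.38 for Btg2, and Btg2 had 0.43 after HFD, none of which passed. The 2 calls after Bacon became 0 without Bacon pool 2, 3 or 5 and 1 without any other pool except HFD pool 2. The call of Arc after HFD was lost without any of the 5 HFD pools or without the pool without odour numbered 2 or 6.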

How the data were processed

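Per the labels and the methods of the study, olfactory epithelia of male mice were pooled by 4 after 1 h of odour exposure, and the pulldown and the input RNA of each pool were sequenced. The authors ran an nf-core pipeline with Salmon on GRCm38 and deposited each gene's expected count, not normalized, which need not be whole. Of the deposited values 28.4% were not whole (tolerance 0.0015). Reads that match several receptors are divided among them by estimation, which affects similar copies.

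Counts were rounded and analysed with edgeR 4.0.16 in R 4.3.3, with TMM normalisation. Genes were kept by filterByExpr over the 8 groups (minimum count 10), which left 21168. A robust quasi-likelihood fit held a term for each pool and a pulldown term for each odour, so that each comparison is a difference of pulldown-to-input ratios. The adjusted p-value threshold was 0.001. The log2 ratio per pool used a prior count of 2. DESeq2 1.42.0 was an alternative. The scripts were tested on simulated data. Ribosomal RNA shares were summed over 311 annotated ribosomal RNA genes with Lars2, AY036118 and Gm42418 among them.

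Pulldown and input were paired by replicate number within an odour, as 2 libraries of 1 pool. Over the 21 pools, the deviations of both from their group correlated at a median of 0.01, so the pairing rests on the labels. Same-numbered pools of different odours had a median correlation of 0.02 in their deviations (27 pairs, -0.21 to 0.11), so the numbers do not pair the groups. The smallest chi-square per degree of freedom between 2 libraries of a group was 3.33 over 90 pairs, so no library was a repeat of another. The sources used here do not give separate days for the pools, so p-values measure the spread between these pools.

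The 3 genes and the gene lists were chosen with earlier results of these data known. Besides the 3 genes, those named are the nearest tested receptors on either side and any receptor within 300 kb that passed, the 3 genes of highest correlation with each, the gene sharing most words of 31 bases and the receptor of highest coding identity, every other gene that passed in both HFD comparisons, and up to 3 per list that passed, with Omp and Gnal. Olfr1352 and Olfr1357 were named after their values were seen.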

Additional observations from a re-analysis of the deposited data

Results flagged for a closer look

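In 36 sets of 5 or 6 pools (3 genes, 4 groups, and pulldown level, input level and log2 ratio), 4 had a pool farther from the others than Dixon's 95% limit, where chance gives about 1 in 20. The input of Olfr1324 was 3.96 CPM in Bacon pool 3 against 3.21 to 3.26 CPM in the other Bacon pools, and 3.56 CPM in HFD pool 1 against 4.65 to 4.97 CPM. The log2 ratio of Olfr1354 was -1.50 in HFD pool 5 against -0.88 to -0.63 in the other HFD pools. Its pulldown level was 5.08 CPM in the pool without odour numbered 6 against 3.11 to 3.41 CPM.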

How the results depend on the processing

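The HFD changes of the 3 genes kept their sign against NCD and Bacon under every alternative tried, with ranges over the left-out pools of -1.75 to -1.59 (Olfr1324), -1.53 to -1.31 (Olfr1354) and -1.65 to -1.47 (ENSMUSG00000061305) against NCD. Other normalizations, no filter on low counts, other prior counts, DESeq2, no term for the pool, a covariate for the ribosomal RNA share and the sum of Olfr1354 with Olfr1355 moved no change of the 3 genes by more than 1 SD between pools. The pulldown libraries alone leave the input out by construction, and here they were filtered on their own. The values of the pulldown alone given above used the genes kept over all libraries. With this setting the change of ENSMUSG00000061305 after HFD went from -0.45 to 0.028 ± 0.14, close to 0. The changes of Olfr1324 became -0.25 after HFD, -1.30 for HFD over Bacon and -0.28 for Bacon over NCD.

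Calls in the lists were less stable, and the cause was not tested. The transduction count after Bacon ranged from 0 to 4 over the left-out pools and was 7 at an adjusted p under 0.05 and 0 with the compared groups only, the ribosomal RNA covariate or the replicate block. After NCD it was 3 at 0.05, 1 with the compared groups only, 1 by DESeq2 and 3 in the pulldown alone, and after HFD 3, 1 by DESeq2 and 1 in the pulldown alone. The activity count after Bacon was 0 to 2 over the left-out pools, 4 at 0.05 and 9 in the pulldown alone. It was 1 with DESeq2's size factors and 0 with the compared groups only, the covariate or the block. After HFD it ranged from 0 to 1, and was 2, 5 and 0 under the same settings. After NCD it was 3 at 0.05 and 8 in the pulldown alone, and for HFD over Bacon 1 in the pulldown alone. Among 7 neighbours of Olfr1354, 1 passed after Bacon at 0.05, namely Olfr1357.

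The replicate block, a pulldown term for the replicate number, gave HFD over NCD changes of -1.66, -1.52 and -1.60 for Olfr1324, Olfr1354 and ENSMUSG00000061305, although the numbers did not pair the pools. Summing Olfr1324 with its closest sharer was not run, since 3 genes tie at 14 shared words, and ENSMUSG00000061305 has no transcript in the annotation used here. The genes lower after HFD in both comparisons, 4 here, were 8 by DESeq2, 8 in the pulldown alone, 8 without Bacon pool 1, 6 without a filter, 3 by total counts, without a pool term or with the replicate block, where Lcn4 no longer passed, and 1 when only the compared groups were fitted, where 2 of the 3 genes described no longer passed. After Bacon over no odour, 801 genes passed, 235 to 1566 with 1 pool left out (lowest without Bacon pool 3, highest without Bacon pool 1), against 1824 by DESeq2, 1597 by total counts, 340 with the replicate block, 55 with the ribosomal RNA covariate and 26 with the compared groups only. Of the 3 genes described, 2 passed there by total counts or with the block and 0 with the covariate or the compared groups only. After NCD, 111 passed, 56 to 335 with 1 pool left out (lowest without the no-odour pool 3, highest without Bacon pool 1). The number was 812 in the pulldown alone, 560 by DESeq2, 216 without a filter, 196 by total counts and 187 with the compared groups only. It was 84 with the covariate and 53 with the block. Of the 3 genes, 1 passed after NCD with the block or by total counts, and 2 with the covariate or the compared groups only. Summing Olfr1354 with both near-copies was chosen after seeing the data. Changes of the 3 genes had SE of 0.16 to 0.20 on the log2 scale.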
